A study of Mus musculus with 6 samples.

Results

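DNA methylation was compared at the genes of 10 families of developmental transcription factors in lung endothelial cells (EC) of infant and young adult mice. The families were Tbx, Pax, the sine oculis homeobox genes, Lhx, Irx, Dlx, Msx, Meis, Pbx and Sox. They comprised 73 autosomal protein-coding genes of the mm10 RefSeq annotation whose symbol is the family name followed by a number, without *Sox17* and *Sox18*. A differentially methylated region (DMR) was included when its midpoint lay in the gene body or within 10 kb of it, and this applied to 125 of the 18333 DMRs in the authors' list. They lay at 30 of the 73 genes. The rule uses position alone, not the direction or size of a change, although the families were picked with earlier results of these data known.

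The EC were sorted as CD31+CD34+ cells without PTPRC, LYVE1, LY76 and PDPN from lungs of C57BL/6N mice, which the study describes as female, with 3 infant samples (8 to 10 days of age) and 3 young adult samples (8 to 12 weeks of age). No genetic change or treatment is named for either group, and the study describes the methylation data as those of 3 mice per age. T-WGBS, bisulfite sequencing of whole genomes from libraries made with a transposase, reads methylation at single CpGs, as bisulfite converts unmethylated but not methylated cytosines. The list gives each DMR the mean methylation of each age group. Values per sample and the coverage behind a DMR were not used here, so the variation among the 3 samples of an age is not known for any region, and no p value is given. Every listed DMR had passed the authors' own threshold of at least 3 consecutive CpGs that each differed at p under 0.05 in a t-test, with group means at least 10 percentage points apart. In a mixed population, a change in the share of cells and a change within cells cannot be told apart. Expression was not measured in these files. Of the endothelial marker genes *Pecam1*, *Cdh5*, *Erg*, *Kdr*, *Tek* and *Cd34*, *Cd34* had no DMR within 10 kb, and 52 of 53 DMRs at the other 5 lost methylation. Among markers of the depleted cells, *Ptprc* and *Pdpn* had no DMR and *Lyve1* had 1, a loss.

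These families act as switches of cell identity in the embryo. T-box factors such as *Tbx2* and *Tbx3* repress transcription in limb, heart and lung development. MEIS and PBX proteins belong to the TALE class of homeodomain proteins and bind DNA together with HOX proteins, whereas SOX proteins bend DNA through an HMG box. In many cell types, genes of these families that are not in use carry CpG islands marked by Polycomb proteins. Such genes are often free of methylation early on and can gain it with age or differentiation, while methylation is often lost at enhancers that are in use.

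The sequences below are the mm10 reference (RefSeq GRCm38.p6) of DMRs with the largest change in a direction at genes that the results turn on, among DMRs of at most 300 bp outside untranslated exons. They are written 5′ to 3′ on the plus strand, with CpGs in capitals, since these are the measured positions.
Meis1 loss (chr11:18956953-18957152): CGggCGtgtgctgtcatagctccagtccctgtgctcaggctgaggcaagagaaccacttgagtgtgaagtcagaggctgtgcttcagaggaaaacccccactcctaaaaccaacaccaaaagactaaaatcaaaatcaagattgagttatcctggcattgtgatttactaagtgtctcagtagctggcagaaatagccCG
Sox13 loss (chr1:133394468-133394609): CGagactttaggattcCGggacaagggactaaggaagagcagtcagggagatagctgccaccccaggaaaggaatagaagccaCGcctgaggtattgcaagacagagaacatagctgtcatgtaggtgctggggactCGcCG
Tbx2 loss (chr11:85840151-85840327): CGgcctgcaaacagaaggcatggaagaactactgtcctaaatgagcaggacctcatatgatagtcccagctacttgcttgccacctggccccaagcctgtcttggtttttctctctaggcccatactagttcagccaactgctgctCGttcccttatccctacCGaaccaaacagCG
Tbx3 loss (chr5:119669244-119669445): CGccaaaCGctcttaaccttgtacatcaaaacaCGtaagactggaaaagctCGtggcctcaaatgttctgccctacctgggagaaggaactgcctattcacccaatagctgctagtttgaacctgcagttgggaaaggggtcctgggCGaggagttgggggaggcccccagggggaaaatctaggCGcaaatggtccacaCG
Tbx3 gain (chr5:119662808-119662873): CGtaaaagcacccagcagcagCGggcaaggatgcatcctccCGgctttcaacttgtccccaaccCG
Meis2 gain (chr2:116069763-116069913): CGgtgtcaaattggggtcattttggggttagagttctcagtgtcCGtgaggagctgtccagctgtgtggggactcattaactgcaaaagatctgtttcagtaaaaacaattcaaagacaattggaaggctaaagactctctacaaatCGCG
Sox9 gain (chr11:112784199-112784232): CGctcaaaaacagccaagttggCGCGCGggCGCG
Pax8 gain (chr2:24474534-24474623): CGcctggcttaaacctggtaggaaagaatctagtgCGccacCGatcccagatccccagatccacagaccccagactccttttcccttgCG

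Most of the losses lay in 4 genes. Of the 125 DMRs, 49 lost and 76 gained methylation from infant to young adult EC. *Meis1*, *Sox13*, *Tbx2* and *Tbx3* held 59 DMRs and 46 of the 49 losses (93.9%). Of the remaining 3 losses, 2 lay in *Sox7*. *Meis1*, *Sox13*, *Tbx2* and *Tbx3* were singled out after their values were seen. Outside these 4, 63 of 66 DMRs at 26 genes gained methylation (95.5%). A high share of gains there follows from setting aside the genes with most of the losses. No other gene set was treated in this way, so neither 93.9% nor 95.5% can be read as a trait of these families. The loss share of all members was 39.2% (95% Wilson interval 31.1 to 48.0, which covers the number of regions only). In the list of 18168 autosomal DMRs the background was 46.3% losses and 53.7% gains, so the pooled share of the members lay near it. Among the 13548 autosomal DMRs within 10 kb of any coding gene, a background closer in position, 55.5% were losses. Because DMRs of a gene are not independent, the share depended on how genes were weighted. With each gene counted equally it was 14.7%, compared with 39.8% over the 4857 autosomal coding genes with a DMR in reach.

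**Figure D1:**
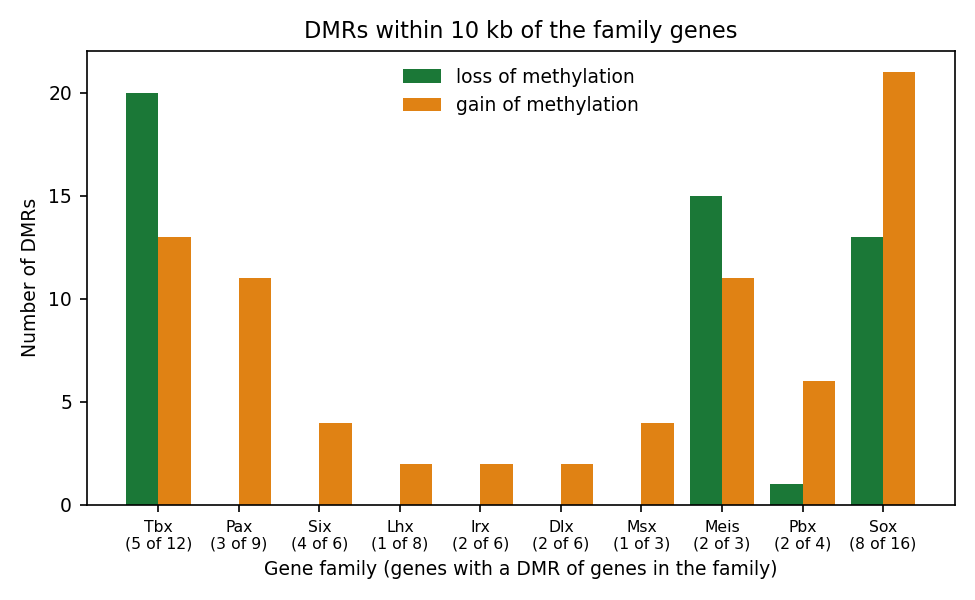
Number of loss (green) and gain (orange) of methylation DMRs within 10 kb of the genes of each family, with the number of genes that had a DMR under each name. Losses are seen only in the Tbx (20), Meis (15), Sox (13) and Pbx (1) families, and the other 6 families have gains alone.

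A DMR was found at 41.1% of the 73 genes and at 23.6% of the 20558 autosomal coding genes, without adjustment for gene length. Of the 30 genes, 24 had gains only (80.0%, against 53.1% of all coding genes with a DMR), 2 had losses only (6.67% against 31.9%) and 4 had both (13.3% against 15.1%). With at least 2 DMRs there were 16 genes, of which 10 had gains only, 2 losses only and 4 both, compared with 790, 706 and 731 of 2227 coding genes. Neighbouring DMRs of a gene had the same direction in 90 of 95 pairs, and 3 of the 5 changes of direction lay at *Meis1*, *Tbx2* and *Tbx3*. The share of such pairs was not computed over all coding genes, so it cannot be read as a trait of these families.

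**Figure D2:**
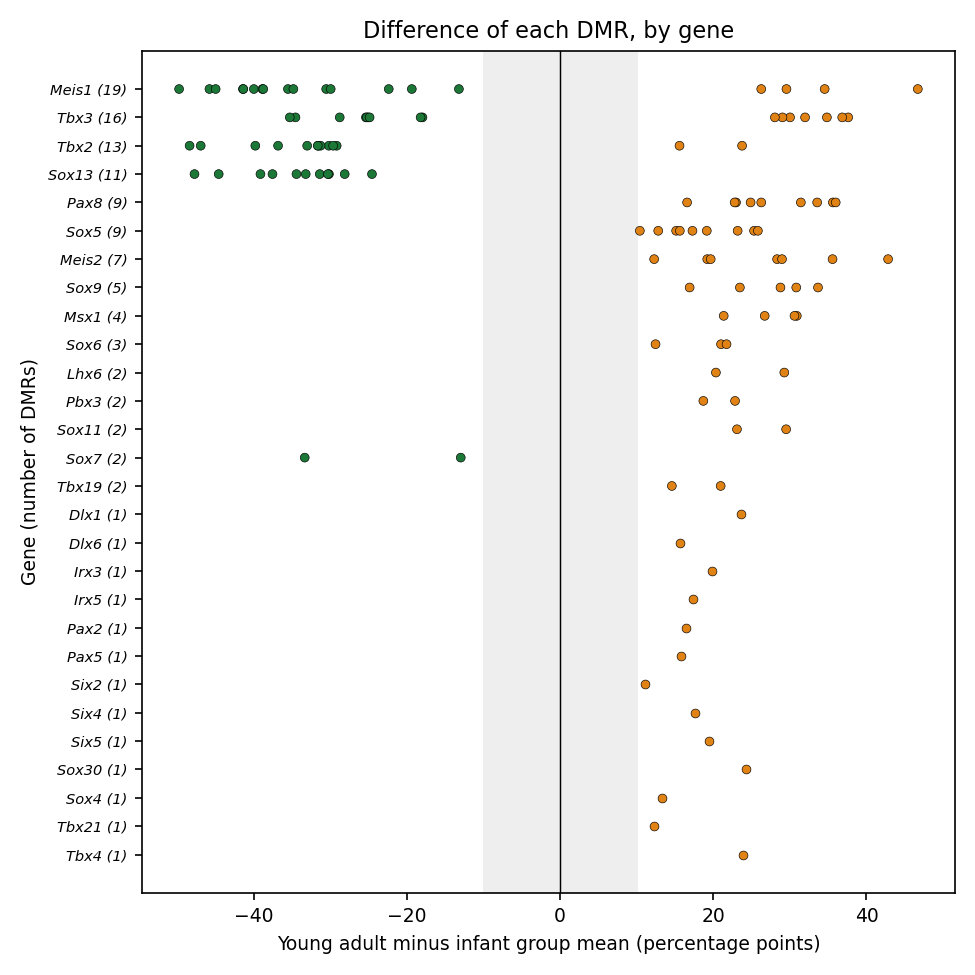
Young adult minus infant group mean of 119 DMRs at 28 genes (percentage points), by gene, with the number of DMRs in parentheses. Points left of 0 (green) are losses and points right of 0 (orange) gains, the grey band marks differences under 10 points, which the list does not hold, and losses are seen at 5 genes.

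*Meis1* had the most DMRs, 19 with 75 CpGs. MEIS1 is a cofactor of HOX proteins in blood stem cells and in vessel development. All 15 losses lay in introns, between 4.4 and 106.5 kb downstream of the transcription start site (TSS), and all 4 gains lay beyond the end of the gene, 142.2 to 148.5 kb from the TSS. The losses had a median methylation of 65.3% in the infant group, which fell to 27.8%. The largest loss among all members was found in intron 5 (chr11:19012222-19012538), where the mean over 3 CpGs went from 86.3% to 36.6%. The weakest loss at the gene, in intron 2 at 4.4 kb from the TSS, went from 22.7% to 9.44%. It and its neighbour at 5.1 kb had the lowest infant means of the series (22.7% and 32.2%), and 11 of the 15 infant means were at 60% or more. The largest gain among all members was also found at *Meis1* and rose from 21.3% to 68.0% over 6 CpGs. The other 3 gains went from 41.3% to 70.8%, from 45.8% to 80.3% and from 61.2% to 87.5%. All 4 lay in the non-coding gene *8430419K02Rik*, and 6 of the 15 losses lay in another, *Gm16141*. Between the last gain and the first loss, 35581 bp held no DMR.

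The other TALE genes moved differently. *Meis2*, a close relative of *Meis1*, had 7 DMRs and all of them gained methylation. Of these, 6 lay upstream, 1.2 to 6.4 kb from the TSS, inside the non-coding gene *G630016G05Rik*. Infant methylation was under 20% in 4 of them, namely 3.93%, 7.08%, 9.72% and 11.1%, and their young adult means were 23.6%, 26.3%, 52.5% and 46.7%. The remaining upstream DMRs went from 39.3% to 67.6% and from 59.5% to 88.4%. The only intronic DMR was nearly full in both ages (82.3% and 94.6%). *Pbx3*, whose product can pair with MEIS proteins on DNA, had 2 intronic gains that ended at 88.0% and 92.0%. *Meis3*, *Pbx2* and *Pbx4* had no DMR.

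*Tbx2* had 11 losses and 2 gains. The losses formed 1 series from 5.2 kb upstream to 8.9 kb downstream of the TSS, with 10 in the gene body of 9334 bp, 7 of them in introns, 2 in the coding sequence and 1 in the untranslated part of exon 7. Infant methylation was high in each, between 63.7% and 89.0%, and young adult methylation was intermediate, between 32.1% and 56.6%. No *Tbx2* loss ended under 20%. The largest, printed above, lay in intron 6 and went from 89.0% to 40.6%, and its neighbour of 9 CpGs (chr11:85839161-85839978) went from 88.1% to 41.2%. The gains lay 13.3 and 16.4 kb from the TSS, on the far side of the gene end, with 73.6% to 89.2% and 17.0% to 40.7%. *Tbx4*, the next T-box gene on chromosome 11 and a regulator of lung bud and hindlimb growth, had a single gain 1.7 kb upstream of its TSS, from 47.9% to 71.8%.

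*Tbx3*, the closest relative of *Tbx2*, had 16 DMRs in a different arrangement. A block of 7 gains lay 9.7 to 7.6 kb upstream of the TSS, with infant means of 22.8% to 50.4% and young adult means of 51.8% to 88.0%. Then, after a gap of 1149 bp without a DMR, 6 losses followed from 6.3 to 1.5 kb upstream. Their infant means lay between 61.1% and 87.6%, and their young adult means between 33.4% and 58.8%. The gain block thus lay below each of the 6 losses in infants, whereas the ranges overlapped in young adults. All 13 upstream DMRs lay in *Tbx3os1*, a non-coding gene beside *Tbx3*. In the gene body the only DMR was in coding exon 6 and fell from 21.1% to 3.11%. The remaining 2 losses lay downstream, in *Tbx3os2*, and fell from 59.4% to 34.5% and from 75.7% to 57.5%. Gains near *Tbx3* were also found past the 10 kb limit. The 3 *Tbx3* DMRs nearest to it on the inside, at 8.8, 9.1 and 9.3 kb from the gene body, differed by 29.0, 30.0 and 32.0 percentage points, and those just outside, at about 10510 and 11550 bp, by 28.0 and 33.6. The other T-box genes with a DMR were *Tbx19*, a pituitary factor with 2 gains (14.6 and 20.96 points), and *Tbx21*, the T-bet gene of T cells, with 1 gain (72.6% to 84.8%).

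**Figure D3:**
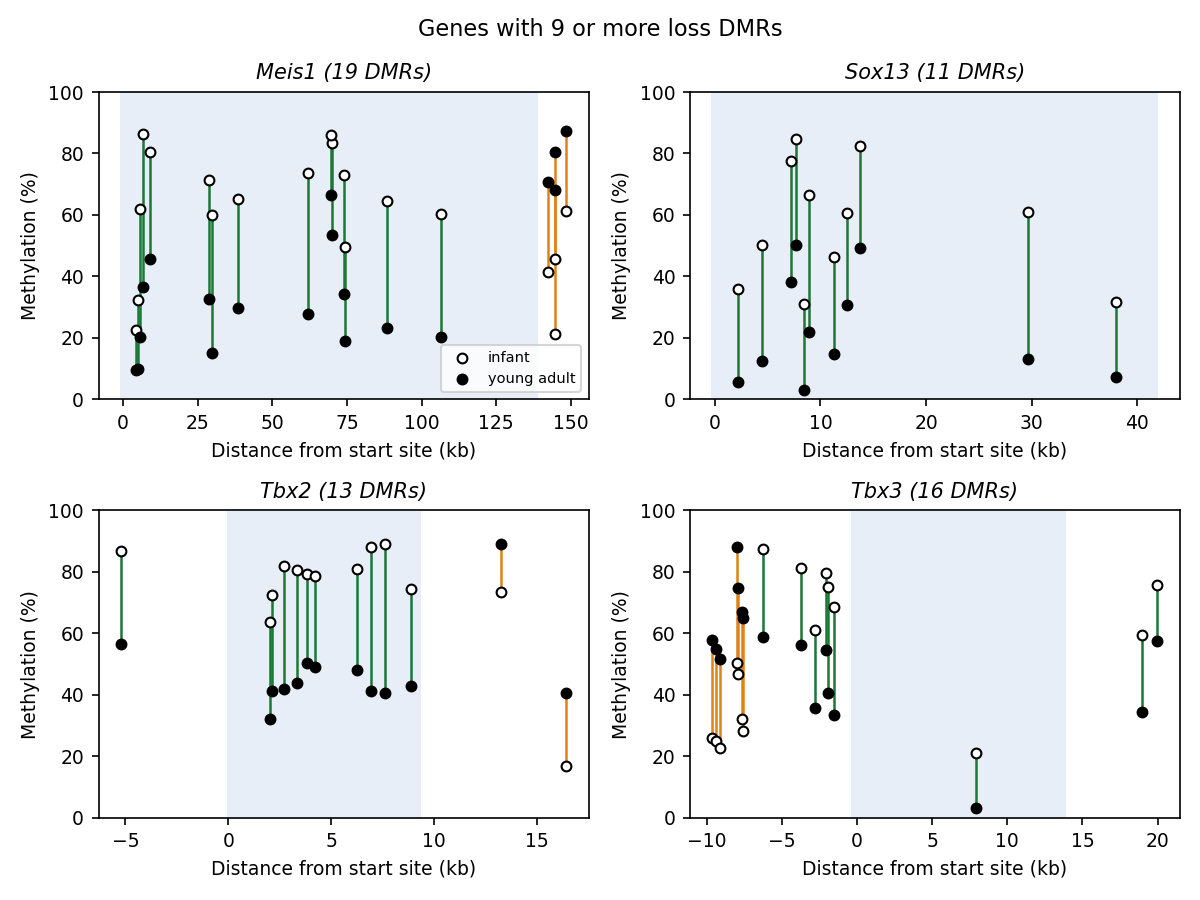
Group mean methylation (%) of each DMR at *Meis1*, *Sox13*, *Tbx2* and *Tbx3* against its distance from the TSS in the direction of transcription (kb), with infant means as open and young adult means as filled circles, green lines for losses, orange lines for gains and the gene body shaded. The *Meis1* losses lie in the gene and its gains beyond the end, the *Tbx2* series falls to between 32.1% and 56.6%, and at *Tbx3* gains stand upstream of the losses.

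*Sox5*, *Sox6* and *Sox13* form the SOXD group. All 11 DMRs of *Sox13* lost methylation and all lay in the gene body, 10 in intron 1 and 1 in coding exon 10. Their median methylation fell from 60.8% to 14.8%, and 6 of them ended under 20%. The lowest young adult mean was 3.004% (chr1:133415652-133415853, from 31.1%), and the largest loss, printed above, went from 60.8% to 13.1%. *Sox5*, a gene of 953863 bp, had 9 gains of 10.4 to 25.8 percentage points, and *Sox6* had 3 gains of 12.5 to 21.7. Of the *Sox5* DMRs, 8 lay in the gene body, and 4 infant means were already at 60% or more. The *Sox5* DMR with the lowest infant mean (4.13% to 21.4%) lay 0.8 kb upstream of the gene. With curated transcripts alone, only 4 of the 9 *Sox5* gains remained in reach.

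*Sox7*, an endothelial SOXF gene, had 2 DMRs, both losses in the untranslated part of exon 2. They fell from 45.1% to 11.8% and from 13.7% to 0.726%, the lowest young adult mean of any member. Just past the 10 kb limit, about 10670 bp from the *Sox7* gene body, lay a gain from 65.1% to 91.1%. That *Sox7* had losses only thus depends on the window. *Sox17*, a SOXF relative left out of the list, had 2 gains whose median went from 10.8% to 42.7%, and *Sox18* had none.

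*Sox9*, a regulator of cartilage and of the lung epithelium, had 5 gains within 1 kb of sequence, 2.0 to 2.9 kb from the TSS. All started under 20%. The 2 in intron 2 rose from 4.51% to 38.2% and from 9.30% to 40.1%. In coding exon 3 the means rose from 8.17% to 25.1%, from 3.63% to 27.1% and from 19.0% to 47.8%. Of the 5, 4 overlapped a CpG island in the 200 bp windows described below. The printed *Sox9* gain, with 6 CpGs in 34 bp, was the 1 that did not. In the stricter 500 bp windows, the gains in coding exon 3 overlapped an island and those in intron 2 did not. Further gains lay at *Sox11* (2), *Sox4* and *Sox30* (1 each). The *Sox4* DMR, 0.2 kb past the end of the gene, had the lowest infant mean of all members, 0.427%, and reached 13.7%.

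The remaining 6 families (Pax, sine oculis homeobox, Lhx, Irx, Dlx and Msx) had 25 DMRs at 13 genes, and all 25 gained methylation, by 11.1 to 36.0 percentage points (median 22.97). *Pax8*, a thyroid and kidney factor, had 9 of them. A group of 5 lay between 0.5 and 2.4 kb from the TSS, and 2 of these were the only DMRs of the 125 within 1 kb of the TSS of a curated transcript. The widest DMR among the members, 1234 bp with 30 CpGs, belonged to this group and rose from 28.8% to 64.4%. A DMR of 3 CpGs close to it started at 3.98% and reached 20.6%. The others lay in introns 9 and 10 and past the gene end, with young adult means of 65.7% to 87.8%. *Pax2* and *Pax5*, the other members of the same PAX subgroup, had 1 gain each (16.4 and 15.7 points).

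*Msx1*, a homeobox factor of limb and craniofacial growth, had 4 gains in and just past the gene, and rose from a median of 29.6% to 57.2%. *Six2*, *Six4* and *Six5* had 1 gain each. *Lhx6*, known from cortical interneurons, had 2 gains in intron 4. Both overlapped a CpG island in the 200 bp windows described below, but not in the stricter 500 bp windows. *Irx3*, *Irx5*, *Dlx1* and *Dlx6* had 1 gain each of 15.7 to 23.6 points. The *Dlx1* DMR lay in the neighbouring coding gene *Metap1d*, and the *Dlx6* DMR in *Dlx6os1* as well.

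**Figure D4:**
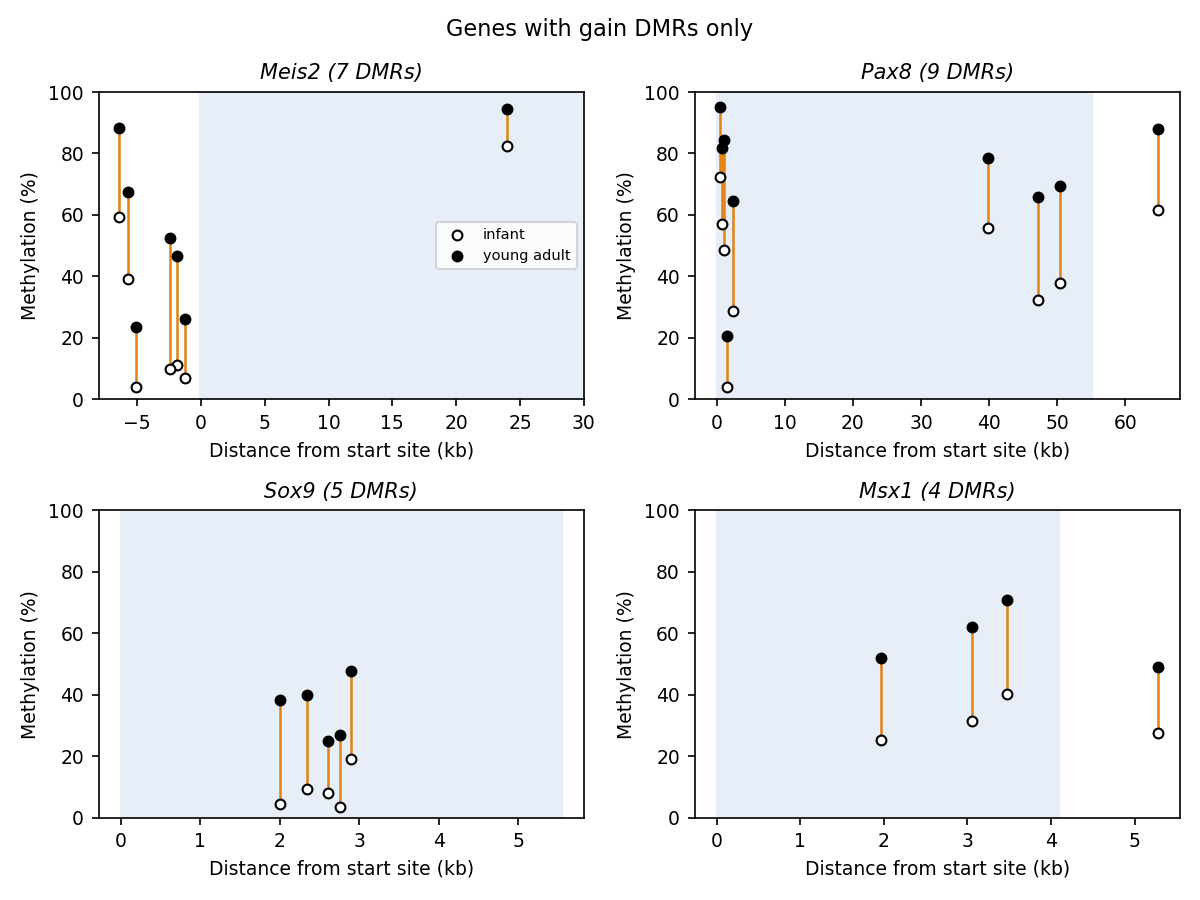
Group mean methylation (%) of each DMR at *Meis2*, *Pax8*, *Sox9* and *Msx1* against its distance from the TSS in the direction of transcription (kb), drawn as for the loss genes. The body of *Meis2* continues beyond the right edge. All 25 DMRs of these genes rose, and those of *Sox9* stayed under 50% in young adult EC.

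No DMR was found at 43 genes. These included *Pax1*, *Pax3*, *Pax4*, *Pax6*, *Pax7* and *Pax9*, *Lhx1* to *Lhx5*, *Lhx8* and *Lhx9*, *Dlx2* to *Dlx5*, *Irx1*, *Irx2*, *Irx4* and *Irx6*, *Six3* and *Six6*, *Msx2* and *Msx3*, *Sox1*, *Sox2*, *Sox8*, *Sox10*, *Sox12*, *Sox14*, *Sox15* and *Sox21*, and *Tbx1*, *Tbx5*, *Tbx6*, *Tbx10*, *Tbx15*, *Tbx18* and *Tbx20*. A gene without a DMR may be unchanged or may lack covered CpGs, and these cannot be told apart from the list.

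The gains of the members started lower than those of the list. Infant methylation of the 76 gains had a median of 40.4%, compared with 55.2% in all autosomal gain DMRs, and the young adult median was 69.5% against 78.2%. An infant mean under 20% was found in 18 gains (23.7%, Wilson 15.5 to 34.4), against 14% of autosomal gains. *Sox9* held 5 and *Meis2* 4 of these 18. The median gain was 23.5 percentage points (95% interval of the median 21.01 to 26.3, over regions), against 20.4. Of the 125 DMRs, 18 gained at least 30 points (background 6.89%) and 32 lost at least 30 points (background 28.3%). Among autosomal gains within 10 kb of any coding gene, the infant median was 52.1%. Of these, 16.05% started under 20%, a share inside the Wilson interval of the members. A low start was not particular to the members. Gains at the Fox, partner and Hox genes described below had infant medians of 33.4%, 37.3% and 15.0%. Their shares under 20% were 45.5%, 38.5% and 63.6%.

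The losses of the members, in contrast, started and ended higher when pooled. Their infant median was 72.4%, against 61.5% in all autosomal losses, and their young adult median was 34.5%, against 25.4%. This differed by family. The 20 Tbx losses (medians 79.1% and 42.4%) and the 1 Pbx loss (76.1% and 54.9%) lay above the list. The 15 Meis losses (65.3% and 27.8%) lay nearer to it, and the 13 Sox losses (50.1% and 13.1%) below it at both ages. The median loss of all members was -31.6 percentage points (interval -35.3 to -30.2), near the -32.5 of the list. A young adult mean under 20% was reached in 13 of 49 losses (26.5%), against 38.1% of autosomal losses, and 6 of the 13 lay in *Sox13* and none in *Tbx2*. No test of these differences was made, since the regions of a gene are not independent.

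**Figure D5:**
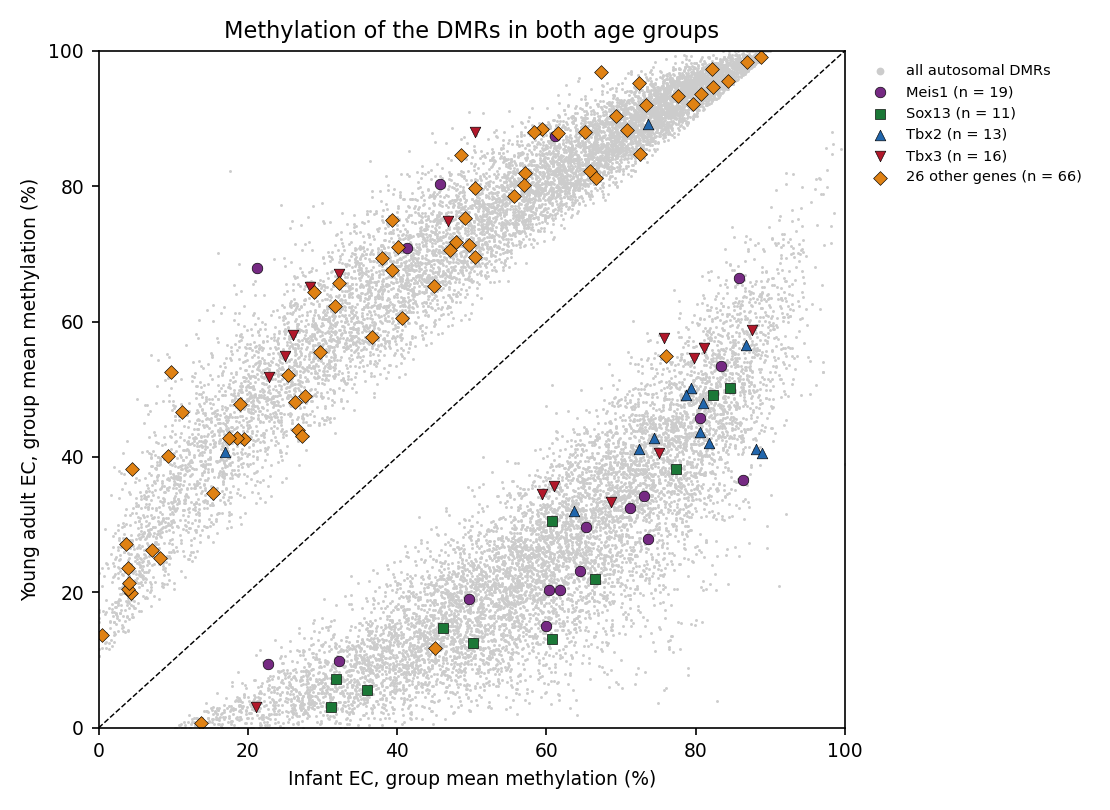
Infant (x axis) and young adult (y axis) group mean methylation (%) of each DMR, with all autosomal DMRs in grey and the dashed line marking equal levels. Apart from 3 points, the 66 DMRs at the 26 genes outside *Meis1*, *Sox13*, *Tbx2* and *Tbx3* (orange) lie above the line. This follows in part from setting apart the genes with most of the losses. The *Tbx2* losses lie at the upper right of the lower cloud.

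By their midpoints, 84 DMRs (67.2%) lay in the body of the gene they were assigned to, 67 of them in introns, 11 in coding and 6 in untranslated exons. Another 27 lay upstream and 14 downstream. The gene body held 81.6% of the losses and 57.9% of the gains, compared with 93.2% and 82.4% of all autosomal DMRs within 10 kb of a coding gene. These shares are not fully alike, as members were assigned to family genes only and the others to the nearest of all coding genes. Gene length was not adjusted for. A CpG island was taken from the sequence as a 200 bp window around the DMR in which G and C made up 50% or more and CpGs exceeded 0.6 of the number that the base composition predicts. They overlapped 22 DMRs (17.6%, Wilson 11.9 to 25.2), against 7.43% of autosomal DMRs, with 21.1% of the gains and 12.2% of the losses. With 1 DMR kept per run of DMRs at most 10 kb apart, the share was 7.55% of 53 DMRs. With 500 bp windows, a GC content of 55% or more and a CpG ratio above 0.65, it was 5.6%. A non-coding gene covered 39 of the 125 DMRs (31.2%), 13 of them in *Tbx3os1*. This share was not computed over all autosomal DMRs, so it cannot be read as a trait of these families.

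Partner genes and relatives outside the naming rule were counted in the same way. Of 22 such genes, 9 had a DMR, in all 11 losses and 13 gains. *Dach1*, a cofactor of sine oculis homeobox proteins, had 5 losses (median 40.9% to 16.3%). *Ldb2*, an adaptor of LIM-homeodomain proteins, had 5 losses and 1 gain, and *Ldb1* had 1 loss. *Pknox2*, a TALE relative of MEIS, had 5 gains (median 44.7% to 73.2%), and *Tgif2* had 2. *Eya1* and *Eya2*, coactivators of the same proteins, had 1 gain each, and the LIM-homeobox gene *Lmx1a* had 1. At the 39 Hox genes of the autosomes, 44 of 47 DMRs gained methylation (93.6%), from a median of 15.0% to 47.0%, and 66.0% overlapped a CpG island. At the 41 Fox genes, 33 of 73 DMRs gained (45.2%). Over all member DMRs, in comparison, 76 of 125 gained (60.8%), with an infant median of 40.4% for the gains.

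Short motifs were counted on both strands of the 200 bp around each DMR midpoint. Each match is of letters only, and no motif contains another. The ETS core AGGAAG was found in 18.4% of member losses, against 29.4% of all autosomal losses, and in 22.4% of member gains, against 28.0%. The SOX letters ACAATG were found in 12.2% of losses (9.54% in the list) and 10.5% of gains (10.7%). For the TALE letters TGACAG the shares were 10.2% (14.7%) and 13.2% (15.7%). The T-box letters AGGTGTG were in 2 of 49 losses (4.08%, list 3.72%) and 2 of 76 gains (2.63%, list 4.12%). The homeodomain letters TAATTA were in 3 of 49 losses (6.12%, list 2.84%) and 4 of 76 gains (5.26%, list 5.58%). The FOX letters GTAAACA were in 1 of 49 losses (2.04%, list 5.9%) and 0 of 76 gains (list 3.02%). With counts this small, these differences from the list cannot be weighed.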

How the data were processed

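The authors trimmed adaptors with SeqPrep, aligned T-WGBS reads with BWA (0.6.1) to mm10 converted in silico, removed duplicates with Picard and called DMRs with bsseq on unsmoothed data in R (3.2.2), using CpGs covered 8 times or more in no fewer than 2 of 3 samples per age. The deposited values are the mean methylation of each DMR per age group, as a fraction. Here they are given in percent, and differences are young adult minus infant, in percentage points.

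The positions in the list are the 0-based cytosines of the first and last CpG, checked on GRCm38.p6 for 18333 of 18333 DMRs. They are printed 1-based, through the last guanine. Each DMR was given to the nearest family gene body (RefSeq gene spans, predicted transcripts included), and distances are from the start of the longest curated transcript. CpG islands and motifs were computed from the sequence. Shares have 95% Wilson intervals and medians exact binomial intervals, which cover the number of regions only. Python (3.11.15), pandas (2.3.3) and scipy (1.17.1) were used. The assignment was tested on simulated data.

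The genes named in full are those with at least 5 DMRs, the leading gene of each family, the 5 largest losses and gains, the 5 gains with the lowest infant mean and genes with a DMR within 1 kb of a TSS. The other genes with a DMR, the subgroups of SOX and PAX genes and the motifs were named after their values were seen. The members and lists were chosen with earlier results of these data known. Some genes and sequences are not reported here, but their DMRs are in all counts. Fits per sample were not possible from group means, and the alternatives tried are given at the end.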

Additional observations from a re-analysis of the deposited data

How the results depend on the processing

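The 6 shares and medians of all members were recomputed in 87 combinations of result and alternative, and 74 stayed inside the 95% interval of the value given. Some alternatives could change little, as taking any overlap with the 10 kb window left 125 DMRs and the same values. The count of 74 is therefore a weak measure of stability. The loss share moved from 39.2% to 64.0% with at least 5 CpGs per DMR (25 DMRs, against 74.8% in the list), to 20.8% with 1 DMR per run within 10 kb (against 42.6% of DMRs near coding genes), and to 14.7% with each gene weighted equally (against 39.8% over all coding genes). Each run kept its DMR of lowest coordinate, whatever its direction. *Tbx3* thus kept 1 of its 9 losses and 1 of its 7 gains, so the share with runs also depends on coordinate order. Leaving out any of the 10 families, or *Meis1* alone, kept the loss share inside the interval. Without the Tbx family it was 31.5%, close to the lower limit of 31.1%. The median gain moved to 28.6 points with a difference of at least 20 points, to 30.6 with at least 5 CpGs and to 20.1 with 1 DMR per run, and the median loss moved to -35.4 with at least 5 CpGs. The share in gene bodies was 76.0% with at least 5 CpGs. It was 89.4% within 2 kb and 44.2% within 50 kb, where a wider window takes in more sequence outside the gene. The island share was 7.55% with 1 DMR per run and 5.6% when window length (500 bp), GC content (55%) and CpG ratio (0.65) were raised together. Neither was computed for the list. The share of gains from low methylation was 39.5% when low meant under 30%. Within 50 kb, 190 DMRs were members, and *Tbx3* had 15 gains in place of 7. The higher median gain with a difference of at least 20 points follows from that setting, as it removes the smaller gains. The higher share of gains from low methylation under 30% likewise follows from the wider limit. Apart from these and the window width, the causes were not tested.

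No paired analysis was possible because the list holds group means without values per sample, and the fits that leave out a replicate were not run for the same reason. A coverage minimum other than that of the authors could not be tried. Depth per DMR is unknown, so small differences from the list cannot be weighed.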
